A study of Mus musculus with 9 samples.

Results

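The 10 genes described here mark meningeal fibroblasts, the connective tissue cells of the membranes that cover the brain. They were taken by symbol from a table of 18820 genes in 9 RNA sequencing libraries, and all 10 were found there. They comprise 3 solute transporters (Slc6a13, Slc13a4 and Slc22a6), 2 genes of retinoic acid metabolism (Aldh1a2 and Crabp2), 4 transcription factors (Foxc1, Foxc2, Foxd1 and Tbx18) and 1 matrix protein gene (Mgp). Each library is cortex RNA of the C57BL/6J strain, from mouse embryos of stage E18.5. The 3 genotypes of Cyfip2, a subunit gene of the actin-regulating WAVE complex, were wild type (WT), heterozygote (Het) and knockout (KO), with 3 libraries each. The labels describe no mutant allele and do not say which libraries are separate embryos; the p-values therefore measure library-to-library spread. Het and KO each hold libraries that differ in Y-linked RNA, which cannot be repeats of 1 embryo. The WT libraries differed in olfactory bulb and choroid plexus RNA, as given below, but whether they come from separate embryos is not known. Their spread may therefore be that of dissection and not of embryos. The values are gene counts that the authors divided by a size factor per library, called normalized counts here.

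Fibroblasts of the pia, arachnoid and dura lie on the surface of the cortex, outside the neural tissue proper. These cells make retinoic acid through Aldh1a2 during development, and the forkhead factor Foxc1 is needed for their layers to form. The transporters Slc6a13, which takes up GABA and taurine, Slc13a4, which carries sulfate, and Slc22a6, which carries organic anions, sit in the membranes that separate cerebrospinal fluid from blood. Several of the 10 genes are also active elsewhere: Tbx18 in pericytes and smooth muscle, Mgp in smooth muscle and cartilage, and Slc13a4 in choroid plexus. In bulk tissue, fewer cells of a type and less RNA per cell cannot be told apart.

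The stretches of DNA before the start sites of the transporters and of Tbx18 are shown first, as Slc6a13 and Slc22a6 had the lowest share left in the library that stood apart and Tbx18 the largest KO to WT difference. They are RefSeq promoters (GRCm38.p6), 5′ to 3′ on the gene's own strand, cut where either RefSeq or GENCODE M21 places the transcript start. Capitals mark CCAAT, a common promoter box, on either strand (CCAAT or ATTGG). Slc6a13 is on the plus strand at chr6:121300038-121300226, Slc13a4 on the minus strand at chr6:35308132-35308376, Slc22a6 on the plus strand at chr19:8617746-8617995 and Tbx18 on the minus strand at chr9:87731261-87731510.
Slc6a13: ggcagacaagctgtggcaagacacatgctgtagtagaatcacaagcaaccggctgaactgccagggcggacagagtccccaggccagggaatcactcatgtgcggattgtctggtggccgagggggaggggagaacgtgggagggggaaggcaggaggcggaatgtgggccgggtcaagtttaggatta
Slc13a4: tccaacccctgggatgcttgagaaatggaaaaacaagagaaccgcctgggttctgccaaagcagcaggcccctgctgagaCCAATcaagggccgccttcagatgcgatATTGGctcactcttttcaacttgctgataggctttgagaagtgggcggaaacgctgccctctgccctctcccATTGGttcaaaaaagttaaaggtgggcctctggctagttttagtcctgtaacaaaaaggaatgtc
Slc22a6: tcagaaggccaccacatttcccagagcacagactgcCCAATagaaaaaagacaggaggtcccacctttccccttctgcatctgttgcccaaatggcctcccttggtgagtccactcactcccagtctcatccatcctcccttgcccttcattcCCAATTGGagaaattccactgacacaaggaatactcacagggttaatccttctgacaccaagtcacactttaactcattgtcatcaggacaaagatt
Tbx18: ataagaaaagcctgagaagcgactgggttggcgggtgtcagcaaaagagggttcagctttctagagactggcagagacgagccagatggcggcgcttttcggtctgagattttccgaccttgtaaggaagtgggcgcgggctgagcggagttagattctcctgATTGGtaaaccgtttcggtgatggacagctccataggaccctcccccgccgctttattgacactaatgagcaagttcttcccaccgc

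Of the 10 genes, 7 had an entry in the promoter table; Crabp2, Foxc2 and Mgp did not. In the 250 bases before the most upstream RefSeq start, CCAAT was present on either strand in 6 of these 7, Slc6a13 being the exception, against 34.5% of 27025 mouse promoters of the same length. The motifs were picked with the sequences in view, so this is a description and not a site. The forkhead core GTAAAC (reverse GTTTAC) was present in 1 of 7, against 6.9% of all promoters: in Tbx18 it shares 1 base with the box, as ATTGG runs from -87 to -83 and GTAAAC from -83 to -78 relative to the start. The T-box half-site AGGTGT (reverse ACACCT) was present in 1 of 7, Aldh1a2, against 12% of all. The retinoid receptor half-site AGGTCA (reverse TGACCT) was in 0 of 7, against 13.8%, and TATAAA (reverse TTTATA) in 0 of 7, against 13% of all.

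The libraries had an approximate depth of 29.5 to 54.4 M reads, from totals of 36 to 38.6 M normalized counts. Cyfip2 did not overlap between genotypes, at 10169 to 11174 in WT, 8969 to 9882 in Het and 7522 to 8255 in KO. One library stood apart for the 10 genes, Het replicate 3, labelled E-HET3. Libraries also differed in olfactory bulb RNA: Cdhr1, a gene of bulb projection neurons, was at 2138 to 3436 in WT replicate 3, Het replicate 1 and KO replicates 1 and 2, and at 21.8 to 53.1 in the other 5. The Y-linked Ddx3y was listed at 0 in Het replicate 1 and KO replicates 1 and 2, and at 1394 to 1674 in the other 6. Every result below is therefore given with and without Het replicate 3, or beside these libraries.

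All 10 genes were lowest in Het replicate 3, below each of the other 8 libraries, as were 18.8% of the 15069 genes tested (mean value 10 or more). Summed over the 10 genes, the normalized count was 200.1 in Het replicate 3 against 3239 to 6669 in the other 8. Its level was from 1.25% (Slc6a13) to 16.5% (Crabp2) of the median of the other 8, with a median of 5.42% over the 10 genes. On the log2(value + 1) scale the difference from that median was -4.24 at the median gene. This library was singled out from earlier results on the same values, so no test was made.

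**Figure D1:**
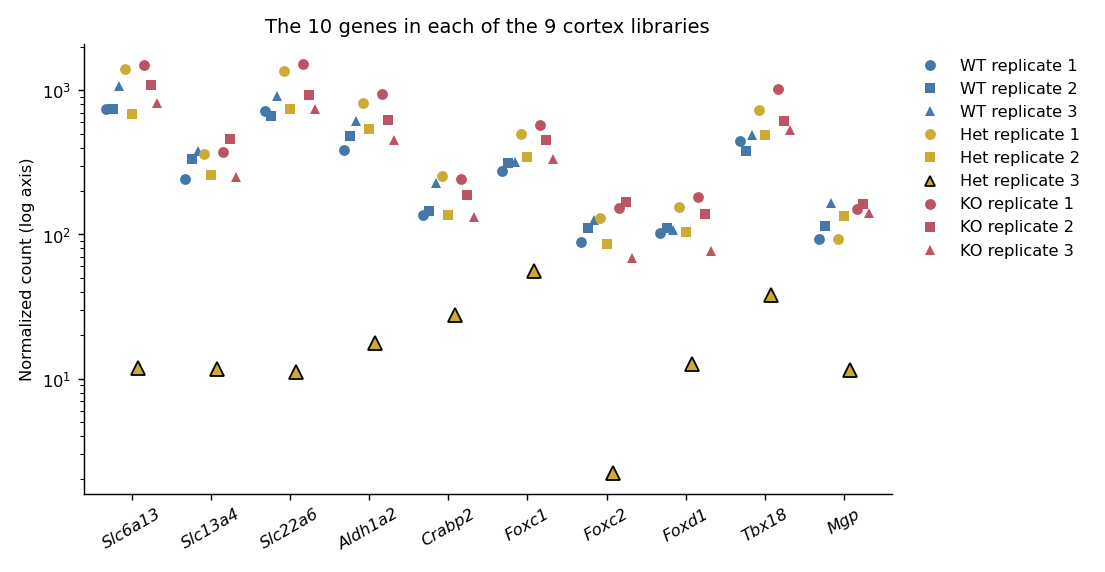
Normalized counts (vertical axis, logarithmic) of the 10 genes in the 9 libraries; each point is 1 library, coloured by genotype and shaped by replicate number, with Het replicate 3 outlined in black. Het replicate 3 lies below every other library for each gene, from 2.2 for Foxc2 to 55.9 for Foxc1.

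Slc6a13 (ENSMUSG00000030108), the GABA and taurine transporter GAT2, lies on chromosome 6 from 121300227 to 121337733 (GRCm38). Its normalized counts were 745, 748 and 1077 in WT, 1414, 689 and 11.8 in Het, and 1502, 1084 and 821 in KO, by replicate number. Slc22a6 (ENSMUSG00000024650), the organic anion transporter OAT1, on chromosome 19 from 8618039 to 8628299, had 718, 661 and 921 in WT, 1360, 744 and 11 in Het, and 1515, 924 and 740 in KO. Both transporters were high in Het replicate 1 and KO replicate 1, and lower in Het replicate 3 than in the lowest other library by 58.2-fold and 59.95-fold. The ratio of Slc6a13 to Slc22a6 stayed near 1 while both varied, at 0.926 to 1.17 in the other 8 libraries. In Het replicate 3 it was 1.07, a value that rests on few reads and is imprecise. With a value worth about 11 reads for Slc6a13 and 10.2 for Slc22a6, approximate 95% Poisson intervals of the remaining level were 0.623% to 2.23% and 0.62% to 2.38%. They treat rounded approximate reads as counts, take the median as fixed and cover counting error only.

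Slc13a4 (ENSMUSG00000029843), the sulfate transporter, on chromosome 6 from 35267957 to 35308131, had 244, 333 and 382 in WT, 362, 260 and 11.6 in Het, and 374, 461 and 252 in KO. It was highest in KO replicate 2 rather than KO replicate 1, and stood at 3.35% of the median in Het replicate 3. Choroid plexus, another source of this RNA, was unevenly present, with Ttr at 3156 in WT replicate 2 and 11029 in Het replicate 2 against 20.7 to 624 elsewhere. Slc13a4 was not high in those 2 libraries, at 333 and 260 against a median of 347, and the part of choroid plexus in its values was not tested.

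The retinoid genes differed from each other in how far they were down in Het replicate 3. Aldh1a2 (ENSMUSG00000013584), whose enzyme makes retinoic acid from retinaldehyde, on chromosome 9 from 71215789 to 71296243, had 387, 482 and 609 in WT, 817, 537 and 17.5 in Het, and 946, 619 and 451 in KO. Crabp2 (ENSMUSG00000004885), which carries retinoic acid to its nuclear receptors, on chromosome 3 from 87948666 to 87953376, had 136, 145 and 228 in WT, 254, 137 and 27.4 in Het, and 243, 188 and 133 in KO. Het replicate 3 held 3.06% of the median level of Aldh1a2 (95% interval 1.72% to 4.89%) and 16.5% of that of Crabp2 (10.5% to 23.9%), where the intervals cover counting error of approximate reads only and take the median as fixed. The ratio of Aldh1a2 to Crabp2 was 0.64 there against 2.68 to 3.93 in the other 8 libraries.

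Foxc1 and Foxc2, paralogous forkhead factors of mesenchyme, were also unequal. Foxc1 (ENSMUSG00000050295), on chromosome 13 from 31806633 to 31812476, had 278, 314 and 319 in WT, 502, 347 and 55.9 in Het, and 579, 453 and 334 in KO. Foxc2 (ENSMUSG00000046714), on chromosome 8 from 121116171 to 121118895, had 89.0, 112 and 127 in WT, 131, 86.2 and 2.2 in Het, and 153, 169 and 68.2 in KO. In Het replicate 3, Foxc1 stood at 16.4% of the median of the others (95% interval 12.3% to 21.6%) and Foxc2, with about 2 reads, at 1.84% (0.219% to 6.52%). The ratio of Foxc1 to Foxc2 was 25.4 in that library, a value that rests on these few reads, and 2.52 to 4.90 in the others.

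Foxd1 (ENSMUSG00000078302), a forkhead factor of stromal cells, on chromosome 13 from 98354242 to 98359305, had 103, 111 and 108 in WT, 156, 104 and 12.7 in Het, and 183, 139 and 77.2 in KO. Tbx18 (ENSMUSG00000032419), a T-box factor that mural cells also express, on chromosome 9 from 87702800 to 87731260, had 447, 381 and 487 in WT, 736, 487 and 38.3 in Het, and 1024, 612 and 534 in KO. They stood at 11.6% and 7.49% of the median in Het replicate 3. Tbx18 had the widest range of the 10 genes among the other 8 libraries, 2.69-fold from WT replicate 2 to KO replicate 1.

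Mgp (ENSMUSG00000030218), whose protein inhibits calcification of matrix, lies on chromosome 6 from 136872435 to 136875823. It had 93.1, 114 and 165 in WT, 93.1, 133 and 11.6 in Het, and 151, 162 and 140 in KO, and stood at 8.45% of the median in Het replicate 3. Unlike the other 9 genes it was lowest in Het replicate 1 among the 8 libraries. Its log2 values correlated with those of each other member at Pearson r from 0.0062 to 0.45 over these 8 libraries, with a median of 0.20. The 36 pairs without Mgp had r from 0.43 to 0.96, with a median of 0.83. These correlations share the libraries and their scaling, and are given as a description.

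Per kilobase of annotated exon, the order of levels at the median of the 8 libraries was Slc6a13 (327 normalized counts per kilobase), Aldh1a2 (253), Slc22a6 (209), Crabp2 (126), Mgp (115), Tbx18 (108), Slc13a4 (76.7), Foxc1 (58.3), Foxc2 (43.8) and Foxd1 (21.6). Each neighbouring pair in that order overlapped in its range over the 8 libraries. These ranges do not pair the genes within a library, so they do not show whether a step held in each one. Some more distant steps had separate ranges, as Slc6a13 ran from 237 to 517 per kilobase and Crabp2 from 100.4 to 192. In Het replicate 3 the order was another one, with Crabp2 (20.7), Mgp (9.73) and Foxc1 (9.56) first and Slc22a6 (2.77), Slc13a4 (2.57), Foxd1 (2.51) and Foxc2 (0.807) last.

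To see how far the pattern of Het replicate 3 reached, the same comparison was made for gene lists. A gene was counted when Het replicate 3 held at most 25% of the lowest of the other 8 libraries, 0 against 0 included. This was so for 10 of 10 members, against 1.67% of all genes tested, and it was a choice made with the values known. Of 29 other meningeal fibroblast genes, 16 were counted and 27 were lowest in Het replicate 3 (18.8% of all genes were lowest there), with a median of 13.4% of the level of the other libraries. The most abundant of them were Igf2, a growth factor (14.5%), the collagen chains Col3a1 (2.63%) and Col1a2 (3.34%), and the chemokine Cxcl12 (31.5%). Crym, a thyroid hormone binding protein that neurons express too, was at 86.9%.

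Markers of other cell types were low in Het replicate 3 as well, some of them as far as the members. Of all genes tested, 18.8% were lowest there and 1.67% were at or under 25% of the lowest other library. Endothelial markers were lowest for 13 of 13, with 0 of 13 under that limit and a summed level of 9531 against 15489 to 23715. Pericyte and smooth muscle markers were lowest for 12 of 13, with 2 of 13 under that limit and a sum of 7485 against 11014 to 16486; Acta2, an actin of smooth muscle, was at 5.76% of the median and the pericyte gene Rgs5 at 66.0%. Microglia and macrophage markers were lowest for 13 of 14, with 5 of 14 under the limit and a sum of 1449 against 4039 to 7326. The 5 were Cd163, Lyve1, F13a1, Pf4 and Mrc1, genes of macrophages at the brain's borders, at 2.36% to 9.27%, inside the range of the 10 members. The other 9 genes of that list were at 32.3% (C1qa) to 87.1% (P2ry12), with Csf1r, the most abundant of them, at 46.6%.

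Choroid plexus markers were lowest in Het replicate 3 for 8 of 11, against 18.8% of all genes tested. Under the limit were 3 of 11, against 1.67% of all genes tested. They summed to 344 against 1265 to 13685, and Enpp2, at 240 against 828 to 1973, was the largest part of the 344. Folr1 (1.35), Kcne2 (7.87) and Sostdc1 (20.0) were inside the range of the other libraries. Ttr was at 20.7 against 31.6 in Het replicate 1, and Calml4 was listed at 0 against 3.02 to 47.3. Cartilage and bone markers were under the limit for 0 of 7 tested, with a sum of 1298 against 1023 to 2383. Matn1, Col10a1 and Comp were too low to be tested. They were listed at 0 there against 0.951 to 11.9, 0 to 2.87 and 2.86 to 12.4 in the others. Erythroid genes, at 0 of 7 under the limit, summed to 63279 against 27036 to 98774. Cortical neuron genes, at 0 of 12, had a median of 112% and a sum of 268504 against 199048 to 264148, with 4 of 12 highest in this library, as were 16.8% of all genes tested. The part of these other cell types in the members' values was not tested.

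**Figure D2:**
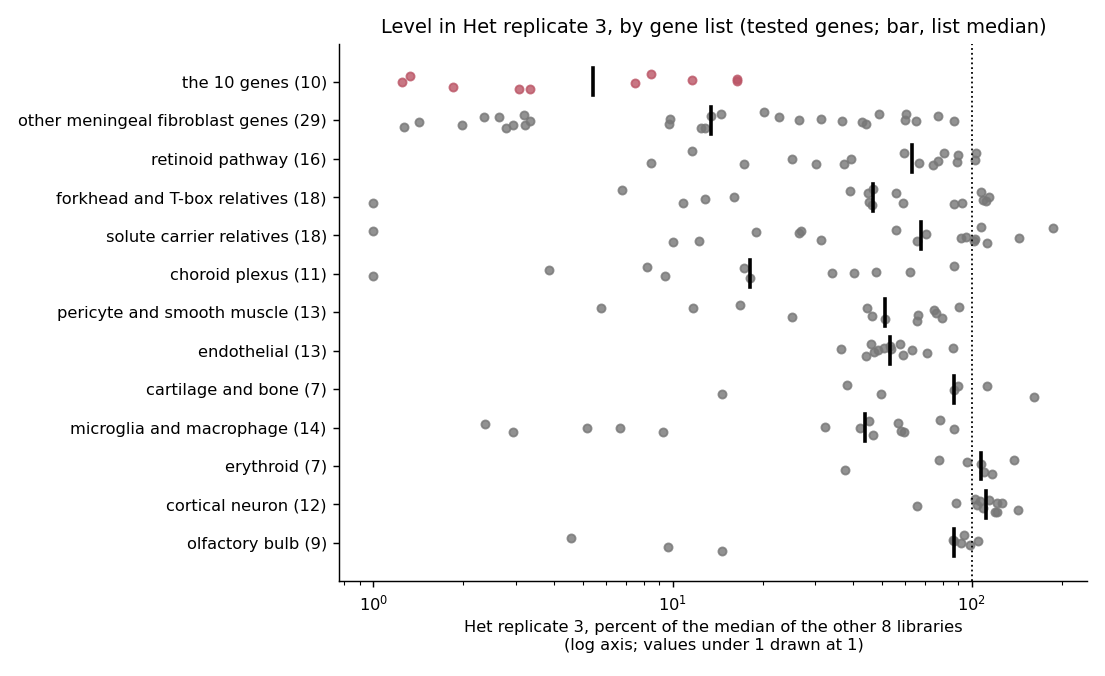
Level in Het replicate 3 as percent of the median of the other 8 libraries (horizontal axis, logarithmic, values under 1 drawn at 1) for each tested gene of 13 lists; each point is 1 gene, black bars are list medians and the dotted line is 100. The 10 genes lie between 1.25% and 16.5%, the endothelial markers between 36.5% and 86.5%, and the cortical neuron genes have a median of 112%.

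The rest of the retinoid pathway was lower to unequal degrees in Het replicate 3. Of 16 tested genes, 9 were lowest there, against 18.8% of all genes, with a median of 63.0%. The 25% limit was met by 1, against 1.67% of all genes: the retinaldehyde dehydrogenase Aldh1a1, at 11.6% of the median. Among the most abundant were the receptor Rxrb (103%), the retinol dehydrogenase Rdh11 (103%) and the receptor Rxra (66.4%). Chosen after their values were seen, the retinol transport receptor Stra6 was at 25.1% and Rarb, a retinoic acid receptor, at 30.1%. Rarb had 222, 153 and 236 in WT, 485, 226 and 69.5 in Het, and 479, 522 and 147 in KO. It was thus low in Het replicate 3 and also high in the 3 libraries without Ddx3y. The retinoid receptor Rxrg, also chosen after its values were seen, was at 20.9 in Het replicate 3 and 20.2 in KO replicate 3. Why these receptors were low was not tested. The degrading enzyme Cyp26b1 was at 320 in Het replicate 3 against 161 to 922, inside the range of the others.

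Relatives and genomic neighbours of the members did not all follow them. Of 18 tested forkhead and T-box relatives, 10 were lowest in Het replicate 3, against 18.8% of all genes, with a median of 46.6%. The 25% limit was met by 5, against 1.67% of all genes: Foxd2, Foxf1, Foxl2, Tbx15 and Foxd3. Foxd3 was at 0 there but also in WT replicates 1 and 2 and KO replicate 3. Tbx15 is also among the 29 other meningeal genes. Among the most abundant, Tbr1 was at 114%, Foxp1 at 112% and Eomes at 87.3% of the median. Of 18 solute carrier relatives, 2 were under it, and Slc6a6 (95.6%), Slc6a8 (108%) and Slc6a11 (113%) were among the most abundant. Slc6a12, a transporter gene 5.34 kb from Slc6a13, was at 12.2% of the median, from a low level of 12.5 to 76.8. Slc22a8, an organic anion transporter 6.20 kb from Slc22a6, was at 55.9%. Foxf1, 28.0 kb from Foxc2, was at 10.9%, and Foxf2 and Foxq1, 175 and 246 kb from Foxc1, at 58.8% and 45.1%. Among the 30 tested genes that are the nearest pairs on each side of a member, 3 had at most 50% of the lowest other library in Het replicate 3, against 3.56% of all genes tested: Slc6a12, Foxf1 and Fam180a, which lies 4.54 kb from Slc13a4 and was listed at 0 there against 10.8 to 31.4.

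The comparison of KO with WT asks what differs when Cyfip2 is mutant on both chromosomes. All 10 genes had a positive KO to WT log2 fold change, from 0.14 (Crabp2) to 0.67 (Tbx18) with a median of 0.35, where the median of all genes tested was -0.0042. None passed: limma called 0.0% of 15069 genes at an adjusted p under 0.05 and 0 of the 10, with 178 genes and 0 members at an unadjusted p under 0.05. All KO libraries were above all WT libraries in 2 of the 10, Foxc1 and Tbx18, where 3.17% of all genes were so. Tbx18 had a mean of 438 ± 53.3 in the WT and 723 ± 263 in the KO libraries (SD, n = 3 each), a log2 fold change of 0.67 ± 0.92 (SE, limma adjusted p = 1.00). Foxc1 was at 304 ± 22.4 and 455 ± 122, a log2 fold change of 0.55 ± 0.68 (adjusted p = 1.00). Slc6a13, at 856 ± 191 and 1136 ± 343, had 0.39 ± 1.45, and Mgp, at 124 ± 37.0 and 151 ± 10.8, had 0.32 ± 0.75 (limma adjusted p = 1.00 for both). The direction was not stable: with sex as a covariate all 10 values were negative (median -0.84), or 7 of 10 without Het replicate 3 (median -0.12). Without KO replicate 2, Slc13a4 and Foxc2 were below 0 (-0.034 and -0.080), and without KO replicate 1 Crabp2, Foxd1 and Foxc2 (-0.061, -0.052 and -0.0092). Slc13a4 was also below 0 without WT replicate 1 (-0.020).

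Het replicate 3 set most of that error, since the 3 genotypes share 1 estimate of the spread. With it, the standard errors of the 10 genes were 0.68 to 1.47; without it they were 0.22 to 0.36, with the same fold changes. The 95% limma intervals without it were 0.083 to 1.26 for Tbx18 and 0.054 to 1.05 for Foxc1, with unadjusted p = 0.03 and 0.034, and limma's adjusted p was 1.00 for each. In that fit 300 of the 15069 genes and 2 of the 10 members had an unadjusted p under 0.05. With sex as a covariate as well, the limma intervals included 0, at -0.27 to 0.84 for Tbx18 and -0.20 to 0.53 for Foxc1. The transporters had intervals of -0.32 to 1.09 (Slc6a13), -0.28 to 1.11 (Slc22a6) and -0.44 to 0.76 (Slc13a4), so neither no difference nor a 1.5-fold higher level was outside them. Limma called 0.0% of 15069 genes and 0 of 10 members in this fit.

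In Het against WT, all 10 log2 fold changes were negative with the 9 libraries and 7 of 10 were positive without Het replicate 3. The median moved from -1.22 to 0.24. Slc6a13 had -1.86 ± 1.45 (SE) with that library and 0.23 ± 0.34 without it, and Tbx18 -0.85 ± 0.92 and 0.46 ± 0.29. Slc13a4, Foxc2 and Mgp remained below 0 without it, at -0.036 ± 0.29, -0.024 ± 0.40 and -0.11 ± 0.27. Limma called 0.0% of genes and 0 of 10 members either way (unadjusted p under 0.05: 242 and 364 genes, 0 members in both). KO against Het gave 10 of 10 positive values with a median of 1.60, and 7 of 10 with a median of 0.12 without that library, again with 0.0% of genes and 0 of 10 members called (541 and 499 genes at an unadjusted p under 0.05, 0 members in both). These comparisons share libraries with each other.

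Limma called 0 genes of every other list in each contrast. For KO against WT, 24 of 29 other meningeal genes had a positive log2 fold change (median 0.39), as had 12 of 16 retinoid genes (0.20), 15 of 18 forkhead and T-box relatives (0.32) and 13 of 18 solute carrier relatives (0.15). Of the markers of other cells, 13 of 13 pericyte and smooth muscle genes (0.33), 12 of 13 endothelial genes (0.29) and 13 of 14 microglia and macrophage genes (0.17) were positive. Choroid plexus genes were positive in 5 of 11 (-0.17) and cortical neuron genes in 2 of 12 (-0.061), against 7287 of the 15069 genes tested. The part of these cell types in the KO to WT values of the members was not tested.

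**Figure D3:**
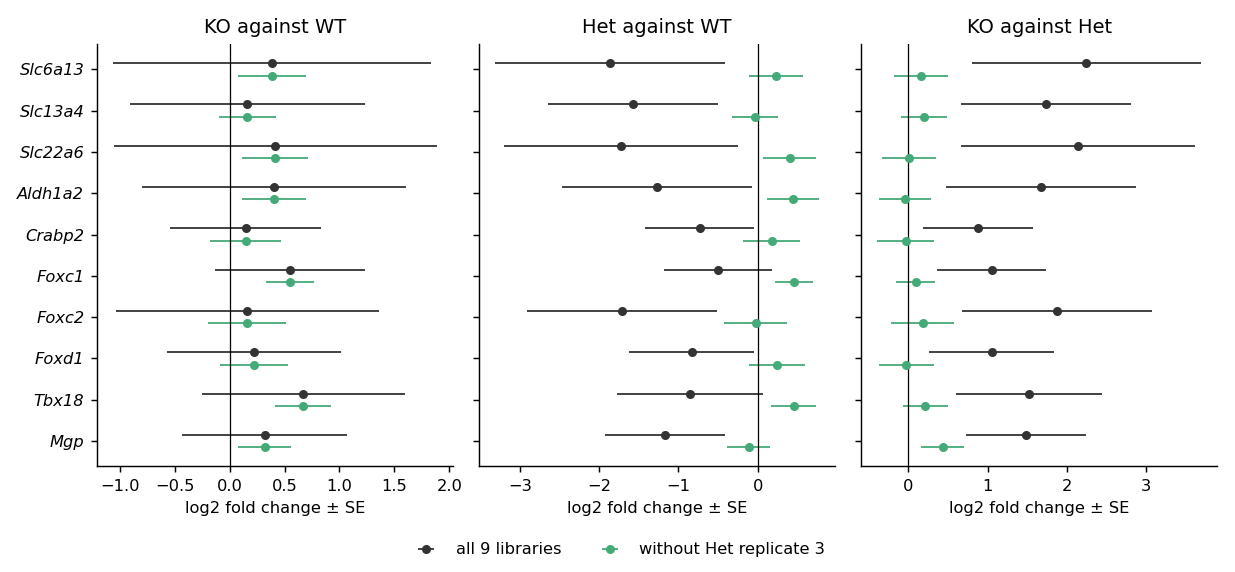
Log2 fold changes of the 10 genes (points, with limma standard errors as bars) for KO against WT, Het against WT and KO against Het, with all 9 libraries (black) and without Het replicate 3 (green). In Het against WT the median moves from -1.22 to 0.24 when Het replicate 3 is left out, and in KO against WT only the error bars change.

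The 8 other libraries were split by olfactory bulb RNA, a split that overlaps with that by Ddx3y. KO replicate 1, KO replicate 2 and Het replicate 1, without Ddx3y, were among the 3 highest in 10, 9 and 8 of the 10 genes. WT replicate 3, with both bulb RNA and Ddx3y, was so in 3. Which of the 2 splits the members followed was not tested. In 6 of the 10 genes the 4 libraries with Cdhr1 above 1000 were all above the 4 without it, where 4.66% of all genes tested were so, and all below them in 0 of 10, where 2.96% were; the 6 were Slc6a13, Slc13a4, Slc22a6, Aldh1a2, Crabp2 and Foxc2. The ratio of the means of these sets was 1.188 (Mgp) to 1.69 (Slc6a13), with a median of 1.58. Crabp2, for example, was at 228 ± 28.8 in the libraries with bulb RNA and 138 ± 5.41 in the others (SD, n = 4 each), and Slc22a6 at 1180 ± 304 and 716 ± 38.3. Of the 29 other meningeal genes 10 were so ordered, among 13 endothelial markers 1, among 13 pericyte and smooth muscle markers 1, and among 14 microglia and macrophage markers 0. The order also held for 5 of 18 forkhead and T-box relatives, 4 of 18 solute carrier relatives and 3 of 16 retinoid genes. It held for 2 of 7 cartilage and bone, 3 of 9 olfactory bulb, 1 of 12 cortical neuron, 0 of 11 choroid plexus and 0 of 7 erythroid genes. No test was made, as the libraries were grouped after the values were seen.

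**Figure D4:**
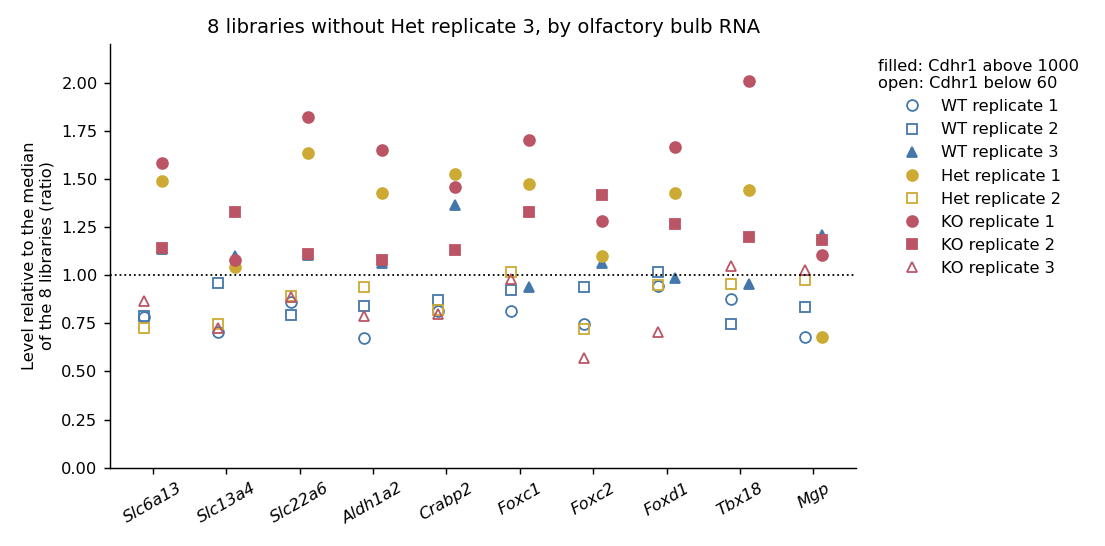
Level of each of the 10 genes in the 8 libraries other than Het replicate 3, as a ratio to their median (vertical axis, from 0); filled points are the 4 libraries with Cdhr1 above 1000, open points the 4 without. For 6 genes every filled point lies above every open point, and for Mgp Het replicate 1 is the lowest.

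The libraries with bulb RNA were WT replicate 3, Het replicate 1 and KO replicates 1 and 2, and the last 3 of these were also those without Ddx3y. Genotype, sex and bulb RNA therefore cannot be told apart fully in these libraries. Within those with bulb RNA, the KO to WT log2 difference had a median of 0.33 over the 10 genes, positive in 8 (2 KO libraries against 1 WT, no test). Within those without, it had a median of 0.082, positive in 6 (1 KO library against 2 WT). Among the libraries with Ddx3y it had a median of -0.071, positive in 3 (KO replicate 3 against 3 WT). For Tbx18 these differences were 0.70, 0.37 and 0.29, and for Foxc1 0.68, 0.18 and 0.14; their signs were fixed by all KO libraries lying above all WT libraries, and the last 2 subsets share libraries. Foxc2 was at 0.34 with bulb RNA and -0.54 without it.

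Genes that followed the members most closely were found by the Pearson correlation of log2 values with the mean centred profile of the 10 genes. Over 9 libraries, where Het replicate 3 sets the profile, the 5 closest were Dcn, a small proteoglycan (r = 1.00), Aebp1, Col6a1, Mrgprf and Itih2 (each r = 1.00 after rounding). Over the 8 libraries without it they were Islr (r = 0.99), Dcn, Itgb3, S1pr2 and Txndc5 (each r = 0.99 after rounding). Dcn was at 23.9 in Het replicate 3 against 898 to 2227, but Txndc5, a protein disulfide isomerase, was at 1419 there against 1786 to 2173. The other meningeal genes had a median r of 0.96 over 9 libraries and 0.89 over 8. These are the highest among many genes over few libraries and are given with no p.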

How the data were processed

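RNA of 9 cortex libraries was sequenced after a stranded mRNA preparation (TruSeq), per the labels' protocols. The deposited table holds a signal: gene counts scaled by the authors with 1 size factor a library, as the table's name and its values show. Salmon 0.11.2, DESeq2 1.19.11, R 3.6.0 and GRCm38 are named in the submitters' processing notes but not what each was used for. Low values clustered at multiples of 1 step per library, but only 60.8% to 78.2% of values under 6 lay within 0.1 of a whole step, so reads were not recovered and no count test was run. Depth is the total divided by that step.

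Values were taken as log2(value + 1) for 15069 genes whose average over the 9 libraries reached 10; all 10 members passed. For low genes this scale makes fold changes smaller than they are. The package limma 3.58.1 in R 4.3.3 (lmFit, eBayes with trend) fitted 1 mean per genotype over all libraries, two-sided, with Benjamini-Hochberg adjustment over all genes tested and a threshold of 0.05; the count test of the design was replaced by this stated fallback. The fit was checked on simulated data that held no library standing apart and no difference in sex or bulb RNA. That check therefore does not show how well the fit detects changes in these libraries. Named genes are all members, and up to 4 most abundant genes per other list, a few of which are not reported here; others named were chosen after their values were seen. The members and lists were chosen with earlier results of these data known. Symbols, spans and exon lengths came from GENCODE M21 (GRCm38), matching 18783 of 18820 gene IDs. Alternatives were other pseudocounts, filters, scalings, covariates, a replicate block and leaving out each library.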

Additional observations from a re-analysis of the deposited data

How the results depend on the processing

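The KO to WT direction of the 10 genes depended on the covariates. With sex as a covariate the log2 fold changes were -1.13 for Slc6a13, -0.96 for Slc13a4, -1.09 for Slc22a6, -0.86 for Aldh1a2, -0.76 for Crabp2, -0.27 for Foxc1, -1.24 for Foxc2, -0.81 for Foxd1, -0.32 for Tbx18 and -0.13 for Mgp, and with olfactory bulb RNA as a covariate, an alternative chosen after seeing the data, -0.18 for Slc6a13, -0.26 for Slc13a4, -0.13 for Slc22a6, -0.072 for Aldh1a2, -0.23 for Crabp2, -0.35 for Foxc2 and -0.13 for Foxd1. Het replicate 3, a library with Ddx3y and without bulb RNA, enters both fits; without it the medians of the 10 genes were -0.12 (3 positive) and 0.17 (7 positive). In those 2 fits the values of a sign other than with all 9 libraries and no covariate were, with sex, -0.15 for Slc6a13, -0.25 for Slc13a4, -0.091 for Slc22a6, -0.059 for Aldh1a2, -0.37 for Crabp2, -0.48 for Foxc2 and -0.34 for Foxd1, and with bulb RNA -0.021 for Slc13a4, -0.10 for Crabp2 and -0.085 for Foxc2. For Het against WT such values were 0.027 for Slc22a6, 0.10 for Aldh1a2, 0.17 for Foxc1 and 0.17 for Tbx18 with sex and 0.11 for Slc6a13, 0.30 for Slc22a6, 0.35 for Aldh1a2, 0.052 for Crabp2, 0.39 for Foxc1, 0.15 for Foxd1 and 0.38 for Tbx18 with bulb RNA, and for KO against Het -0.12 for Slc22a6, -0.16 for Aldh1a2, -0.16 for Crabp2, -0.0067 for Foxc1 and -0.17 for Foxd1 with sex and -0.097 for Slc22a6, -0.15 for Aldh1a2, -0.16 for Crabp2 and -0.12 for Foxd1 with bulb RNA. Leaving out each library in turn, genes whose sign turned had ranges of -0.034 to 0.40 for Slc13a4, -0.061 to 0.38 for Crabp2, -0.080 to 0.57 for Foxc2 and -0.052 to 0.56 for Foxd1 for KO against WT. For Het against WT they were -3.16 to 0.23 for Slc6a13, -3.00 to 0.41 for Slc22a6, -2.28 to 0.45 for Aldh1a2, -1.41 to 0.18 for Crabp2, -1.11 to 0.46 for Foxc1, -1.52 to 0.24 for Foxd1 and -1.66 to 0.46 for Tbx18, and for KO against Het -0.046 to 2.69 for Aldh1a2, -0.032 to 1.55 for Crabp2 and -0.026 to 1.74 for Foxd1. No member passed the threshold in any fit run. The count of genes called was 0 to 1 when a library was left out in each comparison, and 1 for Het against WT and for KO against Het when only the 2 genotypes compared were fitted; these were Gm3650 and Lenep, which are no members. The single genes called with a library left out were Gm3650 (without KO replicate 3, KO against WT and Het against WT), Lenep (without WT replicate 1) and Gm14288 (without Het replicate 1), Lenep and Gm14288 in both Het against WT and KO against Het. The median difference of Het replicate 3 from the other 8 was -3.84 with a pseudocount of 5 and -3.81 after quantile normalization, and -4.31 to -4.18 without each other library. With the replicate number as a block the count of genes called was 0 in each comparison. Same-numbered libraries had deviations correlated at -0.07 to 0.47, over 0.1 in 4 of 9 pairs. Of the 9 libraries, 6 correlated best with their own number. The labels give no pairing, so the numbers were not taken as one in the main fit. Whether they mark one was not tested. About 2 to 16 reads stand behind 7 of the 10 values in Het replicate 3, which limits their precision.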
